A study of Mus musculus with 6 samples.

Results

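The apolipoproteins and the microsomal triglyceride transfer protein, which together build and modify the lipoprotein particles of the liver, were examined in control and lipophagy-induced mouse livers. The group comprised 10 genes chosen by symbol, Apoa1, Apoa2, Apoa4, Apoa5, Apob, Apoc1, Apoc2, Apoc3, Apoe and Mttp. All 10 were found among the 24346 rows of the deposited table, and all 10 were among the 11493 genes whose mean over the 6 livers was at least 0.5 FPKM (fragments per unit of transcript length, scaled to all mapped fragments of a liver), which were the genes tested.

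Hepatocytes export triglyceride as very low density lipoprotein (VLDL). Each particle is built around a single molecule of apolipoprotein B, onto which the transfer protein encoded by Mttp loads lipid in the endoplasmic reticulum, and the smaller apolipoproteins of the A, C and E classes then exchange between VLDL and high density lipoprotein (HDL) in plasma. Apolipoprotein E is a ligand for receptors that clear the particles, apolipoproteins C-II and A-V favour hydrolysis of their triglyceride by lipoprotein lipase, and apolipoprotein C-III opposes it. A diet short of choline limits the phosphatidylcholine that the VLDL surface requires, so export of fat by the liver is impaired while such a diet lasts.

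Male C57BL/6J mice (C57BL/6 in the labels) aged 8 weeks received for 6 weeks a high-fat diet with L-amino acids as its defined protein source and no choline (CDAHFD). They were then given 1 dose of an adeno-associated virus of serotype 8, returned to normal chow and examined 2 weeks later. The vector of the 3 control mice encoded the lipid droplet-targeting sequence of perilipin 1 joined to an LC3-interacting region made inactive by mutation (LDTS-LIR mut), and that of the 3 lipophagy mice the same targeting sequence joined to an engineered region that binds LC3 (LDTS-eLIR). Both vectors used the thyroxine-binding globulin promoter, which is active in hepatocytes, and both groups therefore carried the targeting sequence, which the study describes as mildly lipogenic. The sample labels give the groups only as Control and Lipophagy. No untreated mice, mice on chow alone or livers without a vector were analysed here, so every comparison was between LDTS-eLIR and LDTS-LIR mut after withdrawal of the diet.

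Poly(A) RNA of whole liver was sequenced. Steps in the low FPKM values gave an estimated depth of 22800000 to 34000000 fragments per liver, deepest in control liver 3. The member with the fewest fragments, Mttp, had an estimated 4582 to 6762 per liver, and the member with the most, Apoe, 626397 to 920352. The sum of all FPKM values was 622696 to 681138 in control livers and 709993 to 782392 in lipophagy livers, without overlap. Hepatocyte markers were abundant in every liver, with a summed level of 107025 to 113987 FPKM in control livers and 129410 to 152023 FPKM in lipophagy livers.

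The 10 genes spanned a wide range of levels, and 5 of them were among the 22 most abundant transcripts of every liver. Apoc1 and Apoe stood at the top, with means over the 6 livers of 23118 and 22597 FPKM. Their order was not fixed, since Apoc1 exceeded Apoe in 4 of the 6 livers and the ratio of the 2 genes ran from 0.942 to 1.08. Apoa2 followed at 14444 FPKM and Apoa1 at 10576 FPKM, and each step down from Apoe to Apoc3 (3998 FPKM) was seen in 6 of 6 livers. Apoc2 (527 FPKM), Apoa5 (497 FPKM), Apoa4 (359 FPKM) and Apob (262 FPKM) lay close together and changed places between livers. Mttp was lowest at 54.1 FPKM, and in each liver Apob exceeded it by a factor of 4.13 to 5.72. FPKM is a value per unit of transcript length, so these levels can be set side by side between genes.

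**Figure D1:**
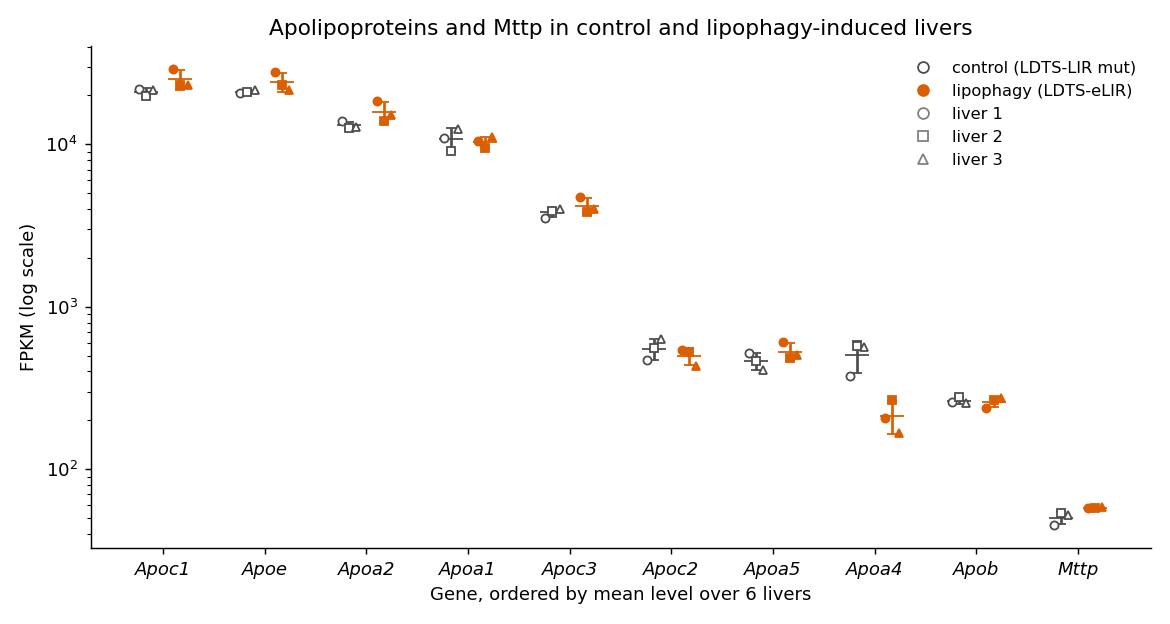
FPKM (log axis) of the 10 genes in each liver, ordered by mean level. Open grey symbols are control livers and filled orange symbols lipophagy livers, symbol shape gives the liver number, and the bars are the mean ± SD of 3 livers. Apoa4 is the gene whose groups stand farthest apart, at 373 to 575 FPKM in control livers and 168 to 266 FPKM in lipophagy livers.

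Apoa4, which encodes an apolipoprotein of chylomicrons, VLDL and HDL that mouse liver makes in larger amounts when it stores triglyceride, was the member with the largest difference. It measured 373, 575 and 568 FPKM in control livers 1, 2 and 3, and 208, 266 and 168 FPKM in lipophagy livers 1, 2 and 3. All 3 lipophagy livers lay below all 3 control livers, and control liver 1 was the control liver nearest to them. The means were 505 ± 114 FPKM (SD, n = 3) and 214 ± 49.1 FPKM (SD, n = 3). On the log2(FPKM + 1) scale the difference was -1.23 (standard error 0.21, 95% interval -1.72 to -0.75), and the fitted level in lipophagy livers was 42.5% of that in control livers (interval 30.4% to 59.4%). The unadjusted p was 0.000362, and after Benjamini-Hochberg adjustment over all 11493 tested genes the adjusted p was 0.103 (limma), above the threshold of 0.05. An adjusted p below 0.05 was found for 0.0261% of the tested genes, each of them lower in lipophagy livers, and 0.218% had a log2 difference of -1 or below. The latter share leaves out falls of similar size in genes with low FPKM, whose differences this scale understates. Fgf21, for example, had a lipophagy mean at 42.0% of the control mean but a log2 difference of -0.83. The adjusted p of Apoa4 crossed the threshold when each liver was scaled to the same total (0.0276) and when livers were weighted by their quality (0.0459). It also did so with the replicate number as a block (0.0377), although the labels give no pairing. It lay between 0.0599 and 0.336 when any single liver was left out (limma). In whole tissue, fewer cells of a type and less RNA per cell cannot be told apart.

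The position of Apoa4 in the genome gives its difference a local reference. In GENCODE M21 (GRCm38, the build mm10 of the submitters' processing notes), Apoa4 lies at chr9:46240696-46243459 on the plus strand, within a cluster that runs from Apoa1 at chr9:46228580-46230466 (plus strand) over Apoc3 at chr9:46232933-46235636 (minus strand) to Apoa5 at chr9:46268633-46271919 (plus strand). All 4 are protein-coding genes, and 5059 bases separate Apoc3 from Apoa4. None of the neighbours had a log2 difference like that of Apoa4. Apoa1 was at -0.062, Apoc3 at 0.13 and Apoa5 at 0.19, each with an interval that included 0. Within a liver the ratio of Apoa4 to Apoc3 was 0.105, 0.148 and 0.142 in control livers and 0.0438, 0.0698 and 0.0418 in lipophagy livers, and the ratio to Apoa1 was 0.0340 to 0.0633 against 0.0152 to 0.0281. Such ratios do not depend on how a liver was scaled, and neither ratio overlapped between the groups. For each of them p was 0.1 (two-sided exact permutation test on log2 ratios), the smallest that this design allows.

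Promoter sequences of this cluster are shown because Apoa4, with the largest difference of the 10 genes, lies beside 3 other members. RefSeq promoter windows (GRCm38.p6) were matched to 8 of the 10 members, with 12 windows in all, and Apoc1 and Apoc3 had none. The stretches printed end before the first base that either RefSeq or GENCODE places in the gene, are read 5′ to 3′ on the plus strand, and mark matches to the motifs searched in capitals. They cover chr9:46240594-46240695 for Apoa4, chr9:46228380-46228579 for Apoa1 and chr9:46268358-46268607 for Apoa5, before the first of its RefSeq starts.
Apoa4: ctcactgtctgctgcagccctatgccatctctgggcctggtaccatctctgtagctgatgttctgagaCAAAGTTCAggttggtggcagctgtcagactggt
Apoa1: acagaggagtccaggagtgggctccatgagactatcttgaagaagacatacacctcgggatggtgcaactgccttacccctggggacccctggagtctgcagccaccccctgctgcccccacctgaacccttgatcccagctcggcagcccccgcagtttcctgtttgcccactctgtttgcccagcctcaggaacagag
Apoa5: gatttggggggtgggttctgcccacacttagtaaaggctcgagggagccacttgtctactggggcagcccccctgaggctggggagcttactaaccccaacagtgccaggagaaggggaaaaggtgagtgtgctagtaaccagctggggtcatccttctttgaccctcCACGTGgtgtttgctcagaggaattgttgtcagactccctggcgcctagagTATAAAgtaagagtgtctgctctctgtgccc

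The 250 bases before each RefSeq start were searched on both strands for the TATA box TATAAA, the E-box CACGTG, the cyclic AMP response element TGACGTCA, a direct repeat of AGGTCA with 1 base between the copies, and the HNF4-type elements CAAAGTCCA, CAAAGTTCA and CAAAGGTCA. The capitals in the Apoa4 stretch are CAAAGTTCA, which lay 182 to 174 bases before the RefSeq start and was held by 0.335% of the 32851 promoter windows of the same length. Of the 8 members with a window, Apoa4 alone held it. The capitals in the Apoa5 stretch are CACGTG, held by 6.02% of windows, and TATAAA, held by 12.4%. The Apoa1 stretch held none of the 7 motifs in these exact spellings, and variant spellings were not searched. TATAAA was also found in windows of Apoa2, Apob and Apoe, and the other 4 motifs in none of the 12 windows, beside 0.0335% to 1.55% of all windows. Matches of letters are a description of these windows, and binding was not measured.

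Mttp was the other member with an unadjusted p below 0.05. Its values were 45.1, 53.6 and 52.2 FPKM in control livers and 57.5, 57.5 and 58.3 FPKM in lipophagy livers. Every lipophagy liver was above every control liver, and the lipophagy livers were nearly alike while control liver 1 lay apart from the other control livers. The means were 50.3 ± 4.59 FPKM (SD, n = 3) and 57.8 ± 0.447 FPKM (SD, n = 3), a log2 difference of 0.20 (standard error 0.087, 95% interval 0.00090 to 0.40), with an unadjusted p of 0.0492 and an adjusted p of 0.254 (limma). Without control liver 1 the difference was 0.13 (unadjusted p = 0.142, limma). With each liver scaled to the same total it was 0.021, a value to be read against the median of all tested genes, which this scaling moved from 0.020 to -0.13.

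Apob, the structural protein of VLDL, measured 258, 279 and 255 FPKM in control livers and 237, 265 and 275 FPKM in lipophagy livers. The groups overlapped, with the lowest value in lipophagy liver 1 and the highest in control liver 2. The log2 difference was -0.027 (standard error 0.090, 95% interval -0.23 to 0.18), a fitted level of 85.0% to 113% of control on the deposited scale. With quantile normalization the difference was -0.20 and with each liver scaled to the same total -0.21 (unadjusted p = 0.0738 and 0.0700, limma). The median of all tested genes was 0.0062 and -0.13 under these scalings, beside 0.020 on the deposited scale. The ratio of Mttp to Apob was 0.175, 0.192 and 0.204 in control livers and 0.242, 0.217 and 0.212 in lipophagy livers. The groups did not overlap in this ratio, which needs no scaling between livers, although control liver 3 and lipophagy liver 3 were close.

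The main proteins of HDL differed from each other in how the groups lay. Apoa2, the smaller of them, measured 13839, 12576 and 12806 FPKM in control livers and 18427, 13836 and 15181 FPKM in lipophagy livers. Lipophagy liver 1 was far above the rest, and lipophagy liver 2 lay just under control liver 1, so the groups met. The log2 difference was 0.27 (standard error 0.14, adjusted p = 0.325, limma), the highest of the 10 genes. Apoa1 measured 10988, 9074 and 12440 FPKM in control livers and 10414, 9453 and 11084 FPKM in lipophagy livers, with the lowest and the highest value both in control livers. Its log2 difference was -0.062 (standard error 0.15, 95% interval -0.40 to 0.28). With quantile normalization the difference of Apoa2 was -0.082 and that of Apoa1 -0.14. With the same total per liver they were 0.082 and -0.24, where the median of all tested genes was -0.13. Without control liver 3 the difference of Apoa1 was 0.044, so neither direction was fixed.

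The C apolipoproteins, which govern how fast the particles are hydrolysed and cleared, also showed no common direction. Apoc1, an inhibitor of lipoprotein uptake, measured 21870, 19774 and 21457 FPKM in control livers and 29197, 23209.5 and 23201 FPKM in lipophagy livers. The groups did not overlap, and lipophagy liver 1 was again the highest. The log2 difference was 0.25 (standard error 0.14, adjusted p = 0.345, limma), and it was 0.14 without lipophagy liver 1 and 0.070 with each liver scaled to the same total. Apoc3, the inhibitor of lipolysis, measured 3539, 3892 and 3994 FPKM in control livers and 4743, 3805 and 4018 FPKM in lipophagy livers, a log2 difference of 0.13 (standard error 0.12) with overlapping groups, which was -0.050 with each liver scaled to the same total. Apoc2, the cofactor of lipoprotein lipase, measured 468, 561 and 631 FPKM in control livers and 545, 524 and 432 FPKM in lipophagy livers. Its groups overlapped as well, with a log2 difference of -0.14 (standard error 0.14). With quantile normalization it was -0.35 and with the same total -0.32 (unadjusted p = 0.00436 and 0.0108, adjusted p = 0.170 and 0.115, limma). Under these scalings 7.84% and 21.8% of all tested genes were lower at an unadjusted p below 0.05. A separate row for the read-through transcript of Apoc4 and Apoc2 was listed at 3.05 to 11.2 FPKM in control livers and 4.39 to 7.30 FPKM in lipophagy livers. Only 141 bases separate the 2 genes on chromosome 7, so reads between them may be divided among these rows.

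Apoe measured 20687, 20988 and 21542 FPKM in control livers, the tightest control group of the 10 genes with a coefficient of variation of 2.06%. In lipophagy livers it measured 27716, 23127 and 21520.3 FPKM, a coefficient of variation of 13.3%. Lipophagy liver 3 lay just below control liver 3, so the groups met. The log2 difference was 0.19 (standard error 0.14, adjusted p = 0.461, limma), and it was -0.028 with quantile normalization and 0.0037 with the same total. Apoe is also made by macrophages. Of 18 tested macrophage and Kupffer cell markers, 14 were lower and 4 higher in lipophagy livers, where 54.5% of all tested genes were higher. With quantile normalization 14 were lower and 4 higher, and with the same total 17 and 1 (51.8% and 22.6% of all tested genes higher). At an unadjusted p below 0.05, 3, 10 and 13 were lower in that order (limma), beside 7.97%, 7.84% and 21.8% of all tested genes. At that threshold 1, 1 and 0 were higher, beside 11.5%, 6.46% and 2.05%. The summed level of these markers was 1212 to 1619 FPKM in control livers and 1137 to 1418 FPKM in lipophagy livers. Markers of resident Kupffer cells were not alike. Clec4f was at 21.0 to 33.3 FPKM with overlapping groups, and Vsig4 was at 11.2 to 13.7 FPKM in control livers and 15.7 to 19.7 FPKM in lipophagy livers, higher without overlap (adjusted p = 0.161, limma). Cd5l (-0.094) and Marco (0.13) overlapped between the groups. Of the whole list Vsig4 was the 1 marker higher without overlap, and 3 were lower without overlap, Cd68, Csf1r and Cybb (15.4% and 10.8% of all tested genes). Timd4, too low to be tested, was below 0.39 FPKM in every liver. Their part in the level of Apoe was not tested. Apoa5, the activator of lipolysis, measured 522, 460.3 and 410 FPKM in control livers and 607, 482 and 501 FPKM in lipophagy livers, with overlapping groups and a log2 difference of 0.19 (standard error 0.13, adjusted p = 0.420, limma), which was 0.0029 with quantile normalization and 0.0083 with the same total.

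**Figure D2:**
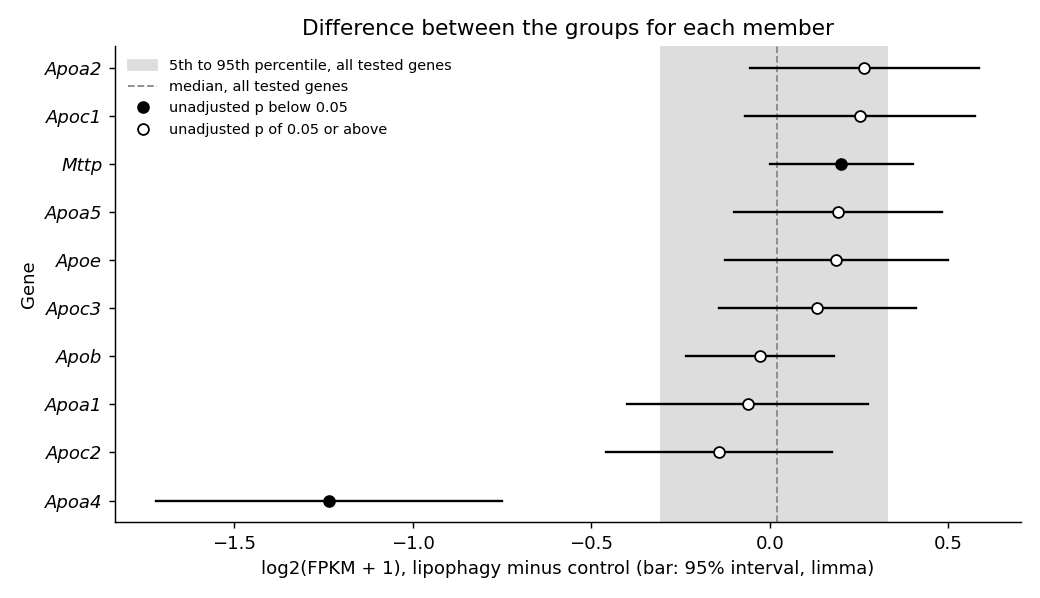
Difference between lipophagy and control livers on the log2(FPKM + 1) scale for each of the 10 genes, with 95% intervals from limma. The grey band holds the values of all tested genes between the 5th percentile (-0.30) and the 95th (0.33), and filled points have an unadjusted p below 0.05, before adjustment. Apoa4 at -1.23 lies outside the band, and the other 9 genes lie within it.

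Counted over the group, 0 of the 10 genes passed the adjustment (limma), and 2 had an unadjusted p below 0.05, as had 19.5% of all tested genes. Of the members, 6 had a higher and 4 a lower mean log2 value in lipophagy livers, where 54.5% of all tested genes were higher. With quantile normalization 4 were higher and 6 lower (51.8% of all tested genes were higher), and with each liver scaled to the same total 5 were higher and 5 lower (22.6% of all tested genes were higher). The median difference of the members was 0.16, beside 0.020 over all tested genes. At an unadjusted p below 0.05, 1 member was higher and 1 lower, where 11.5% of all tested genes were higher and 7.97% lower. The groups did not overlap in 2 members that were higher (Apoc1 and Mttp) and in 1 that was lower (Apoa4), where 15.4% and 10.8% of all tested genes did not overlap in these directions. On the deposited scale these shares lay near the background. The median of the 10 genes was -0.023 with the same total per liver and -0.055 with quantile normalization, and it was 0.061 without lipophagy liver 1. That liver held the highest value of 5 members. Of the hepatocyte markers 18 of 22 were higher in lipophagy livers, with a median of 0.30 on the deposited scale, and 16 of 22 with medians of 0.15 and 0.12 under quantile normalization and the same total, and the part of these markers in the members' values was not tested.

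Together the 10 genes accounted for more than 10.2% of all FPKM in every liver. Their share of the total was 11.7%, 10.4% and 10.9% in control livers and 11.8%, 10.2% and 10.8% in lipophagy livers. The means were 10.97% ± 0.643 (SD, n = 3) and 10.92% ± 0.793 (SD, n = 3), a difference smaller than the spread between livers (two-sided exact permutation test, p = 0.9). The FPKM sum of the members was nevertheless higher in each lipophagy liver, at 75025 to 92150 FPKM against 68232 to 74154 FPKM, and so was the sum of all other rows, at 633554 to 690242 FPKM against 550107 to 606984 FPKM. The smallest p this test allows with 3 livers against 3 is 0.1.

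**Figure D3:**
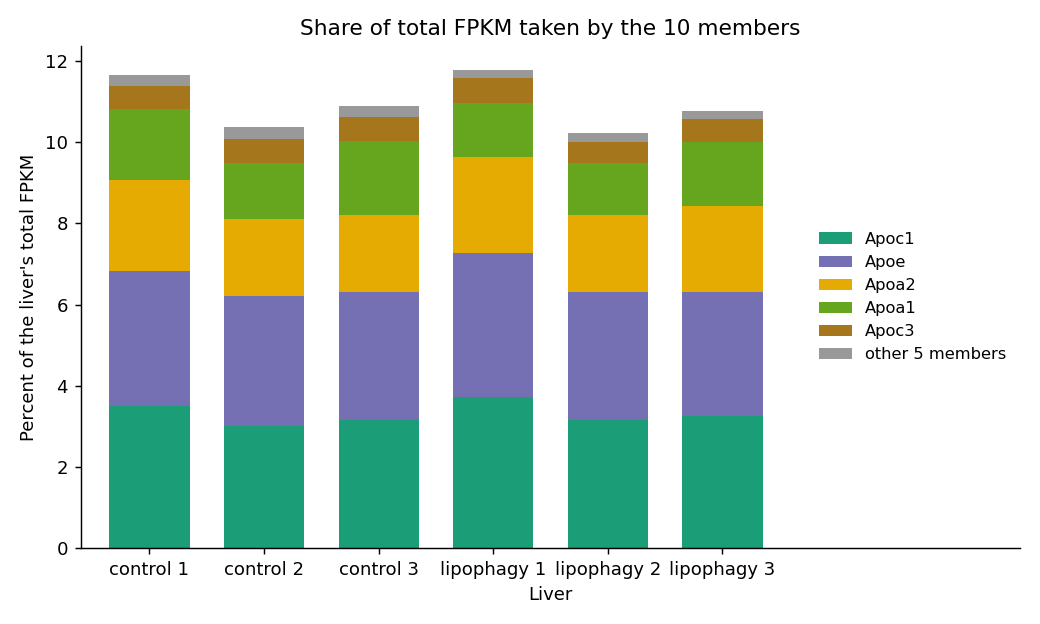
Share of each liver's total FPKM, in percent, taken by the 5 most abundant members and by the other 5 together, drawn as stacked bars from 0 for the 3 control and the 3 lipophagy livers. The bars end between 10.2% and 11.8% in both groups, and Apoc1 and Apoe form the largest layers in every liver.

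Genes that assist VLDL assembly and secretion had higher values in lipophagy livers on the deposited scale in 26 of 32 tested genes, and none passed the adjustment. With each liver scaled to the same total 16 were higher and 16 lower, where 22.6% of all tested genes were higher. The median log2 difference was 0.18 on the deposited scale and 0.0016 with the same total, beside 0.020 and -0.13 over all tested genes. At an unadjusted p below 0.05, 11 of 32 were higher and 1 was lower (limma), where 11.5% of all tested genes were higher and 7.97% lower. These counts were 5 and 3 with quantile normalization (6.46% and 7.84% of all tested genes) and 4 and 4 with the same total per liver (2.05% and 21.8%). The largest differences were those of Hspa5, the chaperone BiP of the endoplasmic reticulum, from 295 ± 70.9 to 540.1 ± 127 FPKM (SD, n = 3 each, log2 difference 0.87, adjusted p = 0.144, limma), and of Sec23b, a coat protein of COPII vesicles (0.60, adjusted p = 0.139, limma). Dgat2, which makes the triglyceride used for VLDL, measured 119, 124 and 123 FPKM in control livers and 191, 164 and 203 FPKM in lipophagy livers. All lipophagy livers were above all control livers (log2 difference 0.60, standard error 0.095, adjusted p = 0.0915, limma), while the isoenzyme Dgat1 was at 0.078 with overlapping groups. P4hb, the protein disulphide isomerase that pairs with the Mttp protein, was at 0.25, Sar1b, the GTPase that forms the carriers of lipoproteins, at 0.32, and Tm6sf2, a factor for lipidation of VLDL, at 0.21. Unadjusted p values below 0.05 were found for P4hb and Sar1b, and the groups of Sar1b and Tm6sf2 overlapped. Without lipophagy liver 1 Tm6sf2 was at 0.043, without control liver 1 Sar1b was at 0.20, and with quantile normalization P4hb was at 0.020.

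Apobec1, the enzyme that edits Apob mRNA so that the short form B-48 is made, had the lowest log2 difference of the assembly list. It measured 9.90, 11.5 and 10.2 FPKM in control livers and 7.90, 8.10 and 8.49 FPKM in lipophagy livers, without overlap (log2 difference -0.33, standard error 0.082, adjusted p = 0.137, limma). Vmp1, a membrane protein of the endoplasmic reticulum, was next at -0.19 with overlapping groups, and at -0.10 without control liver 3. FPKM of a gene does not separate edited from unedited Apob.

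Among the other apolipoproteins 7 of 15 tested genes were higher and 8 lower, with a median of -0.011, which was -0.10 with quantile normalization and -0.19 with the same total. At an unadjusted p below 0.05, 3 were higher and 0 lower on the deposited scale, 0 and 4 with quantile normalization and 0 and 5 with the same total (limma). The shares of all tested genes were 11.5% and 7.97%, 6.46% and 7.84%, and 2.05% and 21.8% in that order. The other 6 of the 21 written genes were too low to be tested. Apom, the HDL protein that carries sphingosine-1-phosphate, was at 345, 362 and 424 FPKM in control livers and 582, 592 and 380 FPKM in lipophagy livers. Lipophagy liver 3 lay among the control livers, and the log2 difference was 0.43 (adjusted p = 0.242, limma). Saa4, the constitutive serum amyloid A, was higher in each lipophagy liver (0.39, adjusted p = 0.154, limma). The acute phase forms Saa1 and Saa2, whose near-identical sequences make the division of reads uncertain, were at -0.51 and -0.50 with control liver 3 far above the rest at 2135 and 1532 FPKM. Without control liver 3 the difference of Saa1 was -0.11 and that of Saa2 was 0.035.

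**Figure D4:**
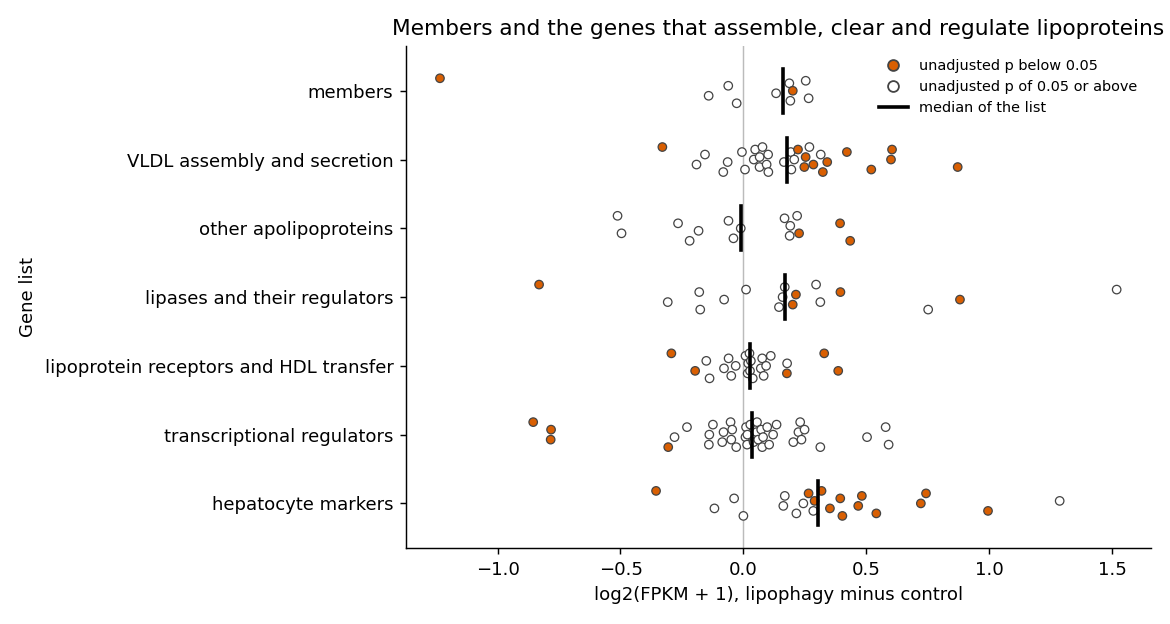
Log2 difference between lipophagy and control livers for each tested gene of the 10 members, of 5 lists of related genes and of the hepatocyte markers. Each point is a gene, orange points have an unadjusted p below 0.05, and the black bar is the median of the list. The medians run from -0.011 for the other apolipoproteins to 0.30 for the hepatocyte markers, and Apoa4 is the lowest point of all lists at -1.23.

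Lipases and their regulators act on the particles once they are secreted. Of 17 tested genes 12 were higher and 5 lower, with a median of 0.17 (8 and 9 with the same total per liver, where 22.6% of all tested genes were higher), and at an unadjusted p below 0.05 there were 4 higher and 1 lower (limma), beside the same 11.5% and 7.97% of all tested genes. These counts were 2 and 4 with quantile normalization (6.46% and 7.84% of all tested genes) and 2 and 5 with the same total (2.05% and 21.8%). Angptl8 (listed under the older symbol Gm6484), a circulating inhibitor of lipoprotein lipase, had the largest difference at 1.52 (standard error 0.72), but this rested on lipophagy liver 3 at 423 FPKM, with every other liver between 22.2 and 81.8 FPKM, and without that liver the difference was 0.65. Angptl4, an inhibitor of the same lipase, measured 37.8, 55.5 and 56.6 FPKM in control livers and 61.9, 115 and 107 FPKM in lipophagy livers (0.88, adjusted p = 0.157, limma), without overlap. Lpl itself was at -0.31 (-0.13 without lipophagy liver 1) and Lipc, the hepatic lipase, at 0.17, each with overlapping groups. Fgf21, a hormone that acts on lipid use, was the lowest of the list at -0.83 (adjusted p = 0.111, and 0.0443 with the same total per liver, limma) and measured 2.34 to 3.61 FPKM in control livers and 0.986 to 1.58 FPKM in lipophagy livers. The plasma enzymes of HDL differed in direction, with Lcat at 0.20 and Pltp at -0.18, both without overlap and with adjusted p of 0.228 and 0.266 (limma), but Lcat was at 0.0071 with quantile normalization and 0.018 with the same total.

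Lipoprotein receptors and genes of HDL transfer had 16 of 24 tested genes higher and a median of 0.026, with 10 of 24 higher under quantile normalization (51.8% of all tested genes) and 2 of 24 with the same total per liver (22.6%). At an unadjusted p below 0.05 there were 3 higher and 2 lower (limma), beside 11.5% and 7.97% of all tested genes, and 1 and 1 with quantile normalization (6.46% and 7.84%) and 1 and 4 with the same total (2.05% and 21.8%). Lrp1, the receptor for remnant particles, was lowest at -0.29 (adjusted p = 0.181, limma), with 25.1 to 28.9 FPKM in control livers and 19.7 to 23.3 FPKM in lipophagy livers, and Abcg1, a cholesterol exporter, was at -0.20. The highest were Atp5b at 0.39, a subunit of the mitochondrial ATP synthase that is listed here as a proposed surface receptor of HDL, and the transporter Abca8a at 0.33. Scarb1, the HDL receptor, was at 0.18 and Abca1, which lipidates apolipoprotein A-I, at 0.082, both with overlapping groups.

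Of the 40 tested transcriptional regulators 25 were higher and 15 lower, with a median of 0.035, and 16 and 24 under quantile normalization (51.8% of all tested genes higher) and 10 and 30 with the same total per liver (22.6% higher). Foxa1, a pioneer factor of hepatocyte genes, fell in lipophagy livers and was the only gene of the 5 lists to pass the adjustment. It measured 6.19, 5.40 and 6.08 FPKM in control livers and 2.85, 2.97 and 3.17 FPKM in lipophagy livers (log2 difference -0.78, standard error 0.083, adjusted p = 0.046, limma), a call that was lost in 5 of the 6 fits that left out a liver. Onecut1 was at -0.86 with control liver 1 at 4.24 FPKM and the other control livers below 1 FPKM, and without control liver 1 it was at -0.38. Srebf1 (0.59) and Nr0b2 (0.58) were highest, with overlapping groups, and were at 0.26 without lipophagy liver 1 and at 0.17 without control liver 1, respectively. At an unadjusted p below 0.05, 0 regulators were higher and 4 lower (limma), beside 11.5% and 7.97% of all tested genes. These counts were 2 and 3 with quantile normalization (6.46% and 7.84% of all tested genes) and 0 and 11 with the same total per liver (2.05% and 21.8%). Foxa2, named after its values were seen, measured 11.7, 14.9 and 17.5 FPKM in control livers and 7.07, 9.05 and 8.05 FPKM in lipophagy livers, without overlap (log2 difference -0.78, adjusted p = 0.116, limma). Hnf4a, Creb3l3, Ppara, Nr1h4 and Foxo1 overlapped between the groups. Hnf4a, which drives many apolipoprotein promoters, was at 0.097 (0.030 without control liver 1). Creb3l3, an activator of Apoa4, measured 92.2, 132 and 135 FPKM in control livers and 134, 160 and 148 FPKM in lipophagy livers, a log2 difference of 0.31 (adjusted p = 0.293, limma) that was 0.14 without control liver 1. Ppara was at -0.049, Nr1h4, the bile acid receptor, at 0.072 (0.023 without control liver 2) and Foxo1, an activator of Mttp and Apoc3, at 0.24 (0.076 without lipophagy liver 3).

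The genes closest in pattern to the members at either end of the range were found by the root mean square difference of centred log2(FPKM + 1) values over the 6 livers among all 11493 tested genes, as a description without a test. Klf6 (0.20), Osgin1 (0.22) and Fam83a (0.25) were nearest to Apoa4. Like Apoa4, Klf6 was lowest among control livers in control liver 1, with 5.22, 7.16 and 7.71 FPKM, and highest among lipophagy livers in lipophagy liver 2, with 2.56, 3.60 and 2.73 FPKM. Adssl1 (0.027), Ttr (0.028) and Aph1a (0.032) were nearest to Apoa2. Ttr, the carrier of thyroid hormone secreted by hepatocytes, measured 8001, 7210 and 7254 FPKM in control livers and 10258, 8070 and 8395 FPKM in lipophagy livers.

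Apoa4, Apob and Mttp are also made by the small intestine. Of 9 intestinal markers, Sis and Cdx2 were at 0 in all 6 livers and Rbp2, Lct, Alpi, Muc2 and Olfm4 were at or below 0.088 FPKM in every liver. Vil1 reached 0.454 FPKM, and Fabp2, which liver expresses too, was at 88.9 to 105 FPKM in control livers and 75.6 to 89.9 FPKM in lipophagy livers.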

How the data were processed

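The authors deposited FPKM values for 24346 gene symbols in each of 6 livers. Per the labels, TopHat2 2.0.13, Bowtie2 2.2.3, SAMtools 0.1.19 and Cufflinks 2.2.1 were used with build mm10 on paired-end reads of stranded mRNA libraries. The annotation is not given in the sources used here, and the sequencer is named differently in the labels (HiSeq 2500) and the methods (NovaSeq 6000). Since FPKM carries no raw read numbers, no count model was applied. Groups and replicate numbers came from the sample titles. The labels say only that the replicates are separate samples, so p-values measure the spread between these samples. No 2 livers held identical values.

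From the values log2(FPKM + 1) was computed, which understates differences of genes with low FPKM. Rows averaging 0.5 FPKM or more over the livers (11493) were fitted with limma 3.58.1 in R 4.3.3 (trended prior variance, no covariates, two-sided) and adjusted by Benjamini-Hochberg over all of them, with a threshold of 0.05. The fit was tested on simulated data with changes larger than those of the members, so that test does not cover differences of their size. Summed shares and ratios between members were compared by an exact permutation test in Python 3.11.15. Depth was estimated from steps in low FPKM values and GENCODE M21 transcript lengths on 320 genes.

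The members, lists and markers were chosen with earlier results of these data known. Named were all members, in each list the genes past the threshold and the 2 with the largest rise and the 2 with the largest fall, a set of genes with known roles (some items of which are not reported here), and the 3 genes nearest in pattern to the members with the largest rise and fall. The motifs, the ratios between members and the read-through row were chosen after values had been seen. Markers of stellate cells (12 of 13 lower), sinusoidal endothelium (7 of 9 higher) and bile duct cells (6 of 6 lower) were looked at as well. Alternatives were other pseudocounts and filters, quantile normalization, scaling to the same median or the same total, limma without the trend, weights for livers, the replicate number as a block, and each liver left out.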

Additional observations from a re-analysis of the deposited data

How the results depend on the processing

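Across the alternatives Apoa4 stayed lower in lipophagy livers, between -1.44 and -1.07 on the log2 scale, and 0 to 1 of the 10 members had an adjusted p below 0.05 (limma). The cause of the changes listed here was not tested. The member called was Apoa4, under liver weights (1 member), the replicate block (1) and scaling to the same total (1). The labels do not say whether the replicate numbers pair the livers, and the values do not settle it. Deviations of same-numbered livers correlated at 0.25, 0.23 and -0.057 across genes, and those of differently numbered livers at -0.39 to 0.25. The block gave Apoa4 an adjusted p of 0.0377 (limma). Members with an unadjusted p below 0.05 numbered 2 (Apoa4 and Mttp, but Apoa4 and Apoc2 with quantile normalization or the same total), with 3 in limma without the trend (Apoa2, Apoa4 and Apoc1), 1 with a filter at 1 FPKM, liver weights or the replicate block, and 1 to 2 with a liver left out. Over all tested genes the number called was 3, with 39 under liver weights, 1 without a filter, 43 under the replicate block, 104 with the same total (5 higher and 99 lower, beside 0 and 3), and 1 to 11 with a liver left out (11 without lipophagy liver 3, 7 without control liver 2, 5 without lipophagy liver 2, 1 without control liver 3). In the related lists 1 gene was called, with 0 at a filter of 0.1 FPKM or none, 4 under the replicate block (Foxa1, Foxa2, Fgf21 and Angptl4), 3 with the same total (Foxa1, Foxa2 and Fgf21) and 0 to 1 with a liver left out.

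Several small differences changed sign with the scaling. With the same total, the median of all tested genes was -0.13 and that of the members -0.023, lipases -0.0073, receptors -0.15 and regulators -0.13, while Apoc3 was at -0.050, Abca1 at -0.086, Dgat1 at -0.093, Hnf4a at -0.085, Lipc at -0.013, Nr1h4 at -0.11 and Scarb1 at -0.0024. Other values that moved by over 1.5 times without changing sign under this scaling were Abca8a (0.17), Abcg1 (-0.35), Apobec1 (-0.51), Apom (0.25), Atp5b (0.20), Creb3l3 (0.13), Foxo1 (0.10), Lpl (-0.49), Lrp1 (-0.47), P4hb (0.070), Pltp (-0.36), Ppara (-0.23), Saa4 (0.21), Sar1b (0.14), Tm6sf2 (0.036) and Vmp1 (-0.37). With quantile normalization the members were at -0.055, receptors at -0.032 and regulators at -0.040, Apoa2 at -0.082, Apoe at -0.028, Hnf4a at -0.057, Lipc at -0.00035 and Nr1h4 at -0.079. Without a filter the median log2 difference of all tested genes was -0.0044. With a liver left out the ranges were 0.061 to 0.20 for the median of the members, -0.053 to 0.095 for the other apolipoproteins, -0.18 to 0.044 for Apoa1, -0.071 to 0.034 for Apob, 0.15 to 0.36 for Apoa2, 0.090 to 0.28 for Apoa5, -0.26 to -0.040 for Apoc2, 0.040 to 0.20 for Apoc3, 0.082 to 0.26 for Apoe, -0.019 to 0.22 for Abca1, -0.24 to 0.15 for Ppara and -0.90 to 0.035 for Saa2. The difference in the members' share of all FPKM was -0.055 percentage points and ran from -0.48 to 0.30 with a liver left out.

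Foxa1 lost its call with a filter of 0.1 FPKM or none (adjusted p = 0.0692 and 0.163, limma) and without control liver 1, 2 or 3 or lipophagy liver 1 or 2 (0.103, 0.0511, 0.207, 0.195 and 0.0565, limma). With 3 livers against 3, each interval above gives the range of differences that the values leave possible. Among the members those of Apoa4 and Mttp left out 0, before adjustment.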
